A study of Mus musculus with 4 samples.

Results

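The genes described here are Cdh3, Pdgfc, Htra3, Prss23, Rps6ka2, Itm2a and Tmod1. These make up 7 of the 46517 genes of the deposited read table, matched there by symbol, and each matched 1 row. They were selected on their measured reads, as low in both Control libraries and higher in both libraries labelled Prmt5 KO. Their levels are therefore given as a description, with no test. The name under which they were collected, adhesion, secreted and kinase genes, covers Cdh3 (adhesion), Pdgfc, Htra3 and Prss23 (secreted) and Rps6ka2 (kinase). Itm2a, a membrane protein, and Tmod1, a cytoskeletal protein, fall outside it.

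The RNA came from invariant natural killer T (iNKT) cells of the thymus of C57BL/6J mice, T cells whose semi-invariant receptor sees lipids on CD1d. Every library was of stage 1 cells, sorted as lacking CD24, NK1.1 and T-bet. The 2 Control libraries carry 1 genotype label for both, which lists Prmt5 flox/D and Prmt5 flox/+ Cd4-Cre without saying which applies to which library. The 2 libraries labelled Prmt5 KO are Prmt5 flox/D Cd4-Cre. Cd4-Cre is active from the CD4 and CD8 double-positive stage of T cell development, so conventional T cells of these mice carry the deletion too, and a Control library may or may not contain Cre. PRMT5 places symmetric dimethyl groups on arginine residues of histones and of splicing proteins. Whether each library is from its own mouse is not said in the labels. The spread between libraries, against which the tests set the group difference, can therefore be technical.

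Exon reads totalled 5571860 in Control 1, 4600799 in Control 2, 13240293 in Prmt5 KO 1 and 5355378 in Prmt5 KO 2, and 1 read was worth 0.0678 CPM (Prmt5 KO 1) to 0.235 CPM (Control 2), where CPM are exon reads scaled to a common depth. Prmt5 itself stood at 98.3 and 99.8 CPM in Control, against 86.7 and 118.9 CPM in the libraries labelled Prmt5 KO, so the reads of the whole gene did not separate the groups, and the table has no reads per exon to check the deleted part. Groups are named as labelled. Of 6 iNKT marker genes none was at 0, and their summed level ranged from 2572 to 3951 CPM over the 4 libraries, most of it Trbc1 and Trbc2. Among them, Cd3e had 853 and 787 CPM in Control, against 287 and 572 in Prmt5 KO, and Zbtb16 had 189 and 145 against 350 and 253 CPM, neither past the threshold (adjusted p = 0.574 and 0.5 in edgeR). Prmt5 KO 1 was the deepest library and had the largest share of intron reads, 6.35% over the genes tested, against 4.93% in Prmt5 KO 2 and 2.73% and 3.82% in Control.

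The proteins of the 7 genes act at different places in a cell. Cadherins such as Cdh3, P-cadherin, join neighbouring cells through calcium-dependent contacts and hold the actin skeleton through catenins. Pdgfc is a platelet-derived growth factor that is secreted in latent form and binds PDGF receptors after cleavage. Htra3 and Prss23 are secreted serine proteases, and Htra3 can lower TGF-beta signalling. Rps6ka2 encodes RSK3, a kinase that ERK switches on. Tmod1, tropomodulin 1, caps the pointed ends of actin filaments and is best known from red cells and striated muscle. Itm2a is a membrane protein that thymocytes induce during positive selection.

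Since the 7 genes were high in the same libraries, their promoters are shown for what they share in letters. RefSeq promoters, from 250 bases before to 50 bases after the start site on GRCm38.p6, were found for 6 of the 7 genes and not for Cdh3. The 4 promoters that hold the SP/KLF box GGGCGG are printed 5′ to 3′ on the gene's strand, followed by that of Pdgfc, in which none of 8 motifs searched was found. Capitals mark matches to any of those motifs on either strand. The windows are chrX:107403311-107403610 (minus strand) for Itm2a, chr4:46038972-46039271 (plus) for Tmod1, chr7:89517537-89517836 (minus) for Prss23, chr17:7169865-7170164 (plus) for Rps6ka2 and chr3:81036166-81036465 (plus) for Pdgfc.
Itm2a: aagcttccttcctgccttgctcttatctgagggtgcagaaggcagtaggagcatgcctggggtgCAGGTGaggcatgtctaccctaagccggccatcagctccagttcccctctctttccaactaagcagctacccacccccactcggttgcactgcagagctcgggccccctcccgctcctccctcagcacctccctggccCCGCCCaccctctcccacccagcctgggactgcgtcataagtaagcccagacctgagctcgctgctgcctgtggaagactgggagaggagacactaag
Tmod1: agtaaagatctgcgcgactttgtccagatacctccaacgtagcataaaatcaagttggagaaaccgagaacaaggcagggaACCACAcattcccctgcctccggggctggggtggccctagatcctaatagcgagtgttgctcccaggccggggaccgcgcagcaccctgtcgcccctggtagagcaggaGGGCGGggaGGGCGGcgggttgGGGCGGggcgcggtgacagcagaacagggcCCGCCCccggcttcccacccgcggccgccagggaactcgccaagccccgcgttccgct
Prss23: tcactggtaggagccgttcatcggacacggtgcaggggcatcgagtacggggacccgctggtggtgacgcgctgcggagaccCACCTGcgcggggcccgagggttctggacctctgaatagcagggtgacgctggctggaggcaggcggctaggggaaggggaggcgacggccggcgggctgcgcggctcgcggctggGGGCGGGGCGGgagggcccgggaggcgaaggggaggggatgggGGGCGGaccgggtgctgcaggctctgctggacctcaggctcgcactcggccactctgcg
Rps6ka2: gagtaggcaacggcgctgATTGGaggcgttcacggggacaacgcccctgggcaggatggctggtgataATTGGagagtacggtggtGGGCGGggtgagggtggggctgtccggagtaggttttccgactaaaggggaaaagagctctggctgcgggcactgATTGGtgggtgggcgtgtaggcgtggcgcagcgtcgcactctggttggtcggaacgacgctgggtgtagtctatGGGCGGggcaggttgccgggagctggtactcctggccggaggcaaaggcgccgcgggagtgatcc
Pdgfc: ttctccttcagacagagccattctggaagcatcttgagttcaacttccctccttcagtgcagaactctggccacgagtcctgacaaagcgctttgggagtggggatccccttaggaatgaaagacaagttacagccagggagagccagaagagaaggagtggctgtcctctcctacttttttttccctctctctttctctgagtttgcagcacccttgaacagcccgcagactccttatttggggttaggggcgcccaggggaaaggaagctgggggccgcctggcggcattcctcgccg

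The SP/KLF box GGGCGG was in 4 of 6 promoters, with 10 matches in all, and in 35.7% of 32851 RefSeq promoters of the same length. Tmod1 held 4 matches, beginning 60, 51, 38 and 8 bases before the start site, and Prss23 held 3, of which the pair at 52 and 47 bases overlap. Rps6ka2 held 2, at 164 and 15 bases, and Itm2a 1, at 48 bases. The CCAAT box CCAAT was in Rps6ka2 (232, 182 and 89 bases before the start) and in Htra3 (72 bases), and in 37.4% of all promoters. The E-box CANNTG was in Itm2a, Htra3 and Prss23, and in 72.3% of all promoters. The Runx box TGTGGT was in Tmod1, 169 bases before the start, and in 16.8% of all promoters. The TATA box TATAAA, the EGR box GCGNGGGCG, the AP-1 site TGANTCA and the CRE TGACGTCA were in 0 of 6, against 13.6%, 5.55%, 7.81% and 1.79% of all promoters. No motif was thus shared by all 6, and the shares rest on 6 promoters. The GC content was 53.7% in Htra3, 55% in Pdgfc, 62% in Itm2a, 64.7% in Rps6ka2, 66% in Tmod1 and 73.7% in Prss23, all above the median of 52.7% over all promoters. The RefSeq start of Tmod1 lies 287 bases from the start in the deposited table, and Prss23 has 7 RefSeq entries, of which the one at the deposited start was used. A match is a string of letters and not a site shown to be bound.

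All 7 genes were higher in both libraries labelled Prmt5 KO than in both Control libraries, by fitted folds from 4.76 (Cdh3) to 17.8 (Prss23). Both Prmt5 KO libraries lay above both Control libraries in 20.5% of the 10775 genes tested; for the 7 genes the choice itself fixed this order. All 7 passed the filter on low counts. The median log2 fold change of the 7 was 2.91, and that of all genes tested was -0.00. The smallest of the 7, that of Cdh3, was exceeded by 245 of the genes tested, so 2.28% lay at or above it. Together the 7 genes took 0.013% and 0.0118% of exon reads in Control, against 0.0835% and 0.0757% in Prmt5 KO. In bulk RNA, more cells that express a gene and more RNA per cell cannot be told apart. CPM below are exon reads scaled by TMM, and folds and log2 fold changes are Prmt5 KO over Control, fitted by edgeR, with the standard error (SE).

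**Figure D1:**
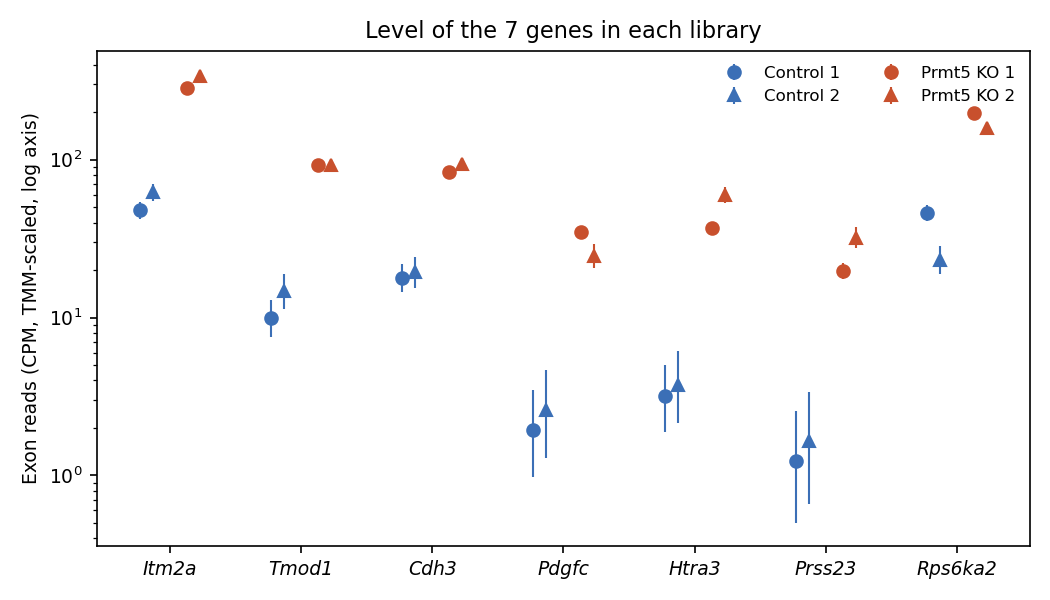
Exon reads of the 7 genes in CPM (log axis), 1 point per library, with exact Poisson 95% intervals that cover counting error only. Both Prmt5 KO libraries lie above both Control libraries for each gene, by the rule that chose them; the lowest Prmt5 KO library was 3.43 times (Rps6ka2) to 12 times (Prss23) the highest Control library.

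Cdh3 (ENSMUSG00000061048.8, plus strand, chr8:106510913-106556908 on mm10), the adhesion gene of the set, had 17.9 CPM in Control 1, 19.5 in Control 2, 83.8 in Prmt5 KO 1 and 94.1 in Prmt5 KO 2. The replicates lay close together and the groups did not overlap. The means were 18.7 ± 1.13 and 89 ± 7.26 CPM (SD, n = 2 each), a log2 fold change of 2.25 ± 0.37 (SE). Its exon reads numbered 101, 83, 1237 and 478 in the same order. With 4.76-fold it had the smallest difference of the 7.

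Pdgfc (ENSMUSG00000028019.9, plus strand, chr3:81036416-81214040), the growth factor, stood at 1.95 and 2.58 CPM in Control, against 34.6 and 24.6 CPM in Prmt5 KO 1 and 2. Each Control value rests on 11 exon reads, against 511 and 125 in Prmt5 KO, so the Control level is known only within 0.972 to 3.49 and 1.29 to 4.62 CPM (exact Poisson 95% intervals, counting error only). The means were 2.27 ± 0.449 and 29.6 ± 7.09 CPM (SD, n = 2 each), a log2 fold change of 3.71 ± 0.63 (SE), or 13.1-fold. With intron reads counted in, the log2 fold change was 3.09.

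Htra3 (ENSMUSG00000029096.15, minus strand, chr5:35652023-35679782), a secreted protease, had 3.19 and 3.76 CPM in Control, against 36.8 and 59.9 CPM in Prmt5 KO 1 and 2. The Control libraries lay close together, while Prmt5 KO 2 was clearly above Prmt5 KO 1. The means were 3.47 ± 0.402 and 48.3 ± 16.3 CPM (SD, n = 2 each), 13.9-fold apart (log2 fold change 3.79 ± 0.54, SE). These values rest on 18 and 16 exon reads in Control, against 543 and 304 in Prmt5 KO.

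Prss23 (ENSMUSG00000039405.7, minus strand, chr7:89507785-89517586), the other secreted protease, was the lowest of the 7 in CPM in Control, with 7 exon reads in each library (1.24 and 1.64 CPM). It reached 290 and 163 reads in Prmt5 KO 1 and 2 (19.7 and 32.1 CPM). The means were 1.44 ± 0.285 and 25.9 ± 8.79 CPM (SD, n = 2 each). This was the largest fold of the 7, at 17.8 (log2 fold change 4.16 ± 0.72, SE), and the one that rests on the fewest Control reads.

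Rps6ka2 (ENSMUSG00000023809.10, plus strand, chr17:7170115-7303313), the kinase RSK3, had 46 CPM in Control 1, 23.2 in Control 2, 197 in Prmt5 KO 1 and 158 in Prmt5 KO 2. It was the 1 gene of the 7 that was higher in Control 1 than in Control 2, and its Control libraries were the farthest apart in proportion. The means were 34.6 ± 16.1 and 177 ± 27.4 CPM (SD, n = 2 each), 5.1-fold apart (log2 fold change 2.35 ± 0.41, SE). The value depended on which Control library was kept: it was 2.97 without Control 1 and 1.94 without Control 2.

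Itm2a (ENSMUSG00000031239.5, minus strand, chrX:107397099-107403376), the membrane protein of positive selection, was the most abundant of the 7. It had 48 and 62.2 CPM in Control, against 285 and 337 CPM in Prmt5 KO 1 and 2, from 271, 265, 4211 and 1710 exon reads. The means were 55.1 ± 10.1 and 311 ± 36.2 CPM (SD, n = 2 each), 5.65-fold apart (log2 fold change 2.50 ± 0.34, SE).

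Tmod1 (ENSMUSG00000028328.13, plus strand, chr4:46038935-46116032), the actin cap, had 9.92 and 14.8 CPM in Control, against 92.2 and 92.7 CPM in Prmt5 KO 1 and 2. The Prmt5 KO libraries were almost equal. The means were 12.4 ± 3.45 and 92.5 ± 0.393 CPM (SD, n = 2 each), 7.51-fold apart (log2 fold change 2.91 ± 0.40, SE).

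**Figure D2:**
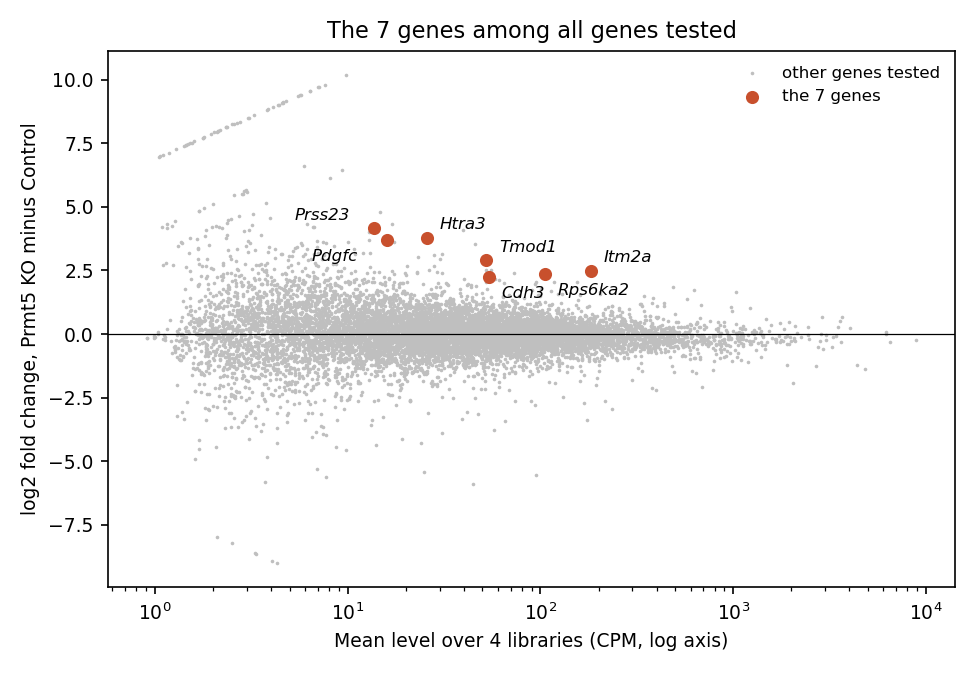
Fitted log2 fold change (Prmt5 KO minus Control) against mean CPM over the 4 libraries (log axis) for the 10775 genes tested, with the 7 genes in red between 2.25 and 4.16. The oblique rows of points at the top and bottom left are genes with 0 reads in 1 group, whose fitted values depend on the prior count.

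The 7 genes did not share 1 pattern between replicates. Only 2 of the 7, Pdgfc and Rps6ka2, were higher in Prmt5 KO 1 than in Prmt5 KO 2. Summed over the 7, levels were 128 and 128 CPM in Control, against 749 and 798 CPM in Prmt5 KO. The authors' deposited table gives fold changes for the same genes of 8.76 (Cdh3) to 32.4 (Prss23), with p-values of 0.0745 to 0.264. Those folds are larger than the fitted ones for every one of the 7, and they compare gene reads without scaling for depth, in a set where Prmt5 KO 1 is the deepest library.

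Levels between genes were compared per length, as the authors' RPKM (exon reads scaled for exon length and depth). In Control the order of means was Itm2a, Rps6ka2, Cdh3, Tmod1, Htra3, Prss23 and Pdgfc. Itm2a stood at 26.1 and 30.4 RPKM, at percentiles 86.5 and 88.8 of the 18026 genes with at least 1 exon read in any library. Pdgfc, at 0.363 and 0.433 RPKM, and Prss23, at 0.365 and 0.434 RPKM, stood between percentiles 38.6 and 40.9 and were not separated by their libraries. Rps6ka2, at 8.09 and 3.67 RPKM, overlapped Cdh3, at 4.27 and 4.18 RPKM. Tmod1 had 2.38 and 3.2 RPKM and Htra3 had 0.78 and 0.826 RPKM, each apart from its neighbours.

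In Prmt5 KO the order by RPKM was the same but for Tmod1 and Cdh3, which overlapped at 23.5 and 20.3 against 21.2 and 20.4 RPKM. Itm2a reached 164 and 166 RPKM, percentiles 98.2 and 97.9, and Rps6ka2 36.6 and 25.2 RPKM, percentiles 90.2 and 87.3. Htra3 followed at 9.54 and 13.3 RPKM. Prss23, at 6.12 and 8.58 RPKM, again overlapped Pdgfc, at 6.84 and 4.17 RPKM, and both were then between percentiles 63.1 and 73.4. The rank among the 7 was thus nearly kept while all moved up among genes.

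The table also counts reads across exon-exon junctions and reads in introns, which separate spliced transcripts from unspliced ones. Junction reads made up 54.6% to 59.2% of exon reads of Itm2a in the 4 libraries, 44.8% to 47.1% of those of Rps6ka2 and 37.5% to 44.4% of those of Htra3. For Pdgfc the share was 27.3% to 38.6% and for Tmod1 42.9% to 54%. For Cdh3 it was 55.4% and 44.6% in Control and 63.7% and 59.8% in Prmt5 KO, with Control intervals of 45.2% to 65.3% and 33.7% to 55.9% (exact binomial, 95%). Junction reads of these 6 genes, scaled as CPM, were 5.17-fold (Rps6ka2) to 15.9-fold (Pdgfc) higher in mean in Prmt5 KO, so the difference was in spliced reads too. The rule that chose the genes also used these reads.

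Prss23 stood apart, with few junction reads: 2 of 290 exon reads in Prmt5 KO 1 (0.69%), 6 of 163 in Prmt5 KO 2 (3.68%) and 0 of 14 in Control, which allows a share of up to 21.4%. Its row has 2 exons, with 3226 exon bases, and it had 0 intron reads in any library.

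**Figure D3:**
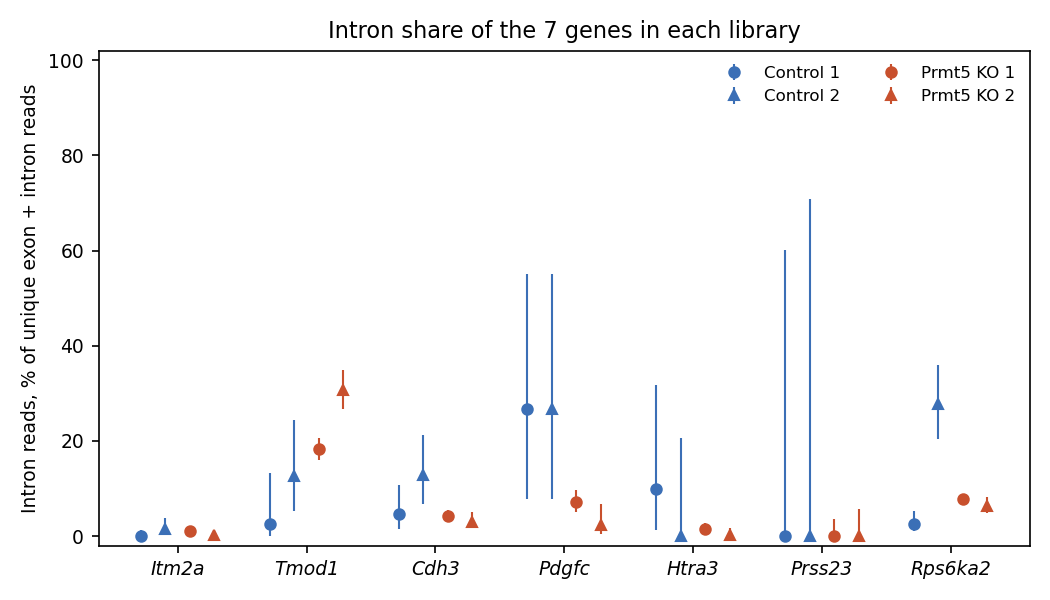
Unique intron reads as a percentage of unique exon and intron reads of each gene in each library, with exact binomial 95% intervals that cover counting error only. Tmod1 is at 2.5% and 12.7% in Control and at 18.3% and 30.7% in Prmt5 KO; the wide bars for Pdgfc and Prss23 come from few Control reads.

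Introns set Tmod1 apart from the other 6 genes. It had 1 and 7 unique intron reads in Control, against 221 and 157 in Prmt5 KO 1 and 2, so its intron share was 2.5% and 12.7% in Control and 18.3% and 30.7% in Prmt5 KO. The Prmt5 KO values were above both Control values, and the interval of Control 2 (5.27% to 24.5%) reached that of Prmt5 KO 1 (16.1% to 20.6%). Counting all reads in place of unique ones, the share was 1.75% and 12.5% in Control, against 14.2% and 25.2% in Prmt5 KO. By that count Control 2 and Prmt5 KO 1 lay close together. Intron reads of Tmod1, scaled as CPM, were 25.2-fold higher in mean in Prmt5 KO, against 7.51-fold for exon reads. That fold rests on few Control reads: it was 14 without Control 1, 130 without Control 2 and 16.5 without Prmt5 KO 2. Intron reads, too, were among those the genes were chosen on. The share of intron reads over all genes tested was also higher in Prmt5 KO (6.35% and 4.93%) than in Control (2.73% and 3.82%), and its part in the value of Tmod1 was not tested.

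In 4 of the other genes the pooled intron share was lower in Prmt5 KO, against that shift. It was 5.56% in Control and 1.05% in Prmt5 KO for Htra3, 8.5% and 3.87% for Cdh3, 26.7% and 6.29% for Pdgfc, and 11.1% and 7.52% for Rps6ka2. The Control shares rest on few intron reads: 2 and 0 for Htra3, 5 and 12 for Cdh3, 4 and 4 for Pdgfc, and 7 and 38 for Rps6ka2. For Rps6ka2 the 2 Control libraries lay on either side of Prmt5 KO, at 2.62% and 27.7% against 7.84% and 6.31%. The same held for Htra3, at 10% and 0% against 1.46% and 0.328%. Cdh3 had 4.72% and 12.8% against 4.19% and 3.04%, and the interval of Control 1 (1.55% to 10.7%) covered both Prmt5 KO values. Pdgfc had 26.7% in each Control library against 7.18% and 2.4%. Its Control intervals (7.79% to 55.1%) reached that of Prmt5 KO 1 (5.16% to 9.69%). Itm2a had few intron reads in every library, with a pooled share of 0.741% in Control and 0.855% in Prmt5 KO. Intron reads of Itm2a numbered 0 and 4 in Control, against 46 and 5 in Prmt5 KO. Mean intron reads, scaled as CPM, were 1.79-fold (Cdh3), 1.96-fold (Pdgfc) and 2.69-fold (Rps6ka2) those of Control, and these folds depended on single libraries. That of Rps6ka2 was 1.53 without Control 1 and 11 without Control 2, that of Cdh3 was 1.17 without Control 1 and 3.73 without Control 2, and that of Pdgfc was 0.717 when Prmt5 KO 1 was left out and 3.21 when Prmt5 KO 2 was.

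Most exon reads of 5 of the genes mapped to 1 place: at least 97.6% were unique in every library. Tmod1 and Prss23 were the exceptions. Unique reads were 69.6% and 76.2% of exon reads of Tmod1 in Control and 72.7% and 75.4% in Prmt5 KO, and 57.1%, 42.9%, 35.2% and 39.3% of those of Prss23. With unique reads only, Tmod1 stood at 6.91 and 11.3 CPM in Control, against 67 and 69.9 CPM in Prmt5 KO. Prss23 stood at 0.708 and 0.704 CPM in Control, from 4 and 3 reads, and at 6.91 and 12.6 CPM in Prmt5 KO. Unique reads are part of the exon reads on which the genes were chosen, so this order of the groups is no independent evidence.

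Both genes share exon bases with a gene on the other strand. The 3′ part of Tmod1 overlaps Tstd2 over 1287 exon bases, 32.6% of the exon bases of Tmod1, and Tstd2 had 75.6 and 77.7 CPM in Control, against 86.6 and 107 CPM in Prmt5 KO. Prss23 shares 864 bases (26.8%) with Prss23os, to which 0, 0, 1 and 2 exon reads were assigned. Pdgfc shares 147 bases (2.89%) with Gm16000, to which 0, 1, 0 and 2 reads were assigned. Whether counting used strand is not given in the sources used here. Within the shared bases, reads of these genes and of their antisense partners therefore cannot be told apart. The levels of Tmod1 and Prss23 are uncertain at least to that extent. Of the Prss23 exon reads in Prmt5 KO 1 and 2, only 35.2% and 39.3% were unique. Where the other reads also mapped was not tested.

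The choice did not use the 30 listed relatives of the 7 genes in the same families. Of these, 10 had 0 reads in every library and 14 could be tested. edgeR's quasi-likelihood test passed 0 of the 14 in either direction at an adjusted p under 0.05, where it passed 0.00928% of all genes tested, and DESeq2 passed 0. An unadjusted p under 0.05 was reached by 2 of them, against 8.58% of all genes. The median log2 fold change of the 14 was -0.21, and that of all genes -0.00. Both Prmt5 KO libraries lay above both Control libraries in 1 of the 14, against 20.5% of all genes, and below them in 4, against 19% of all genes.

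**Figure D4:**
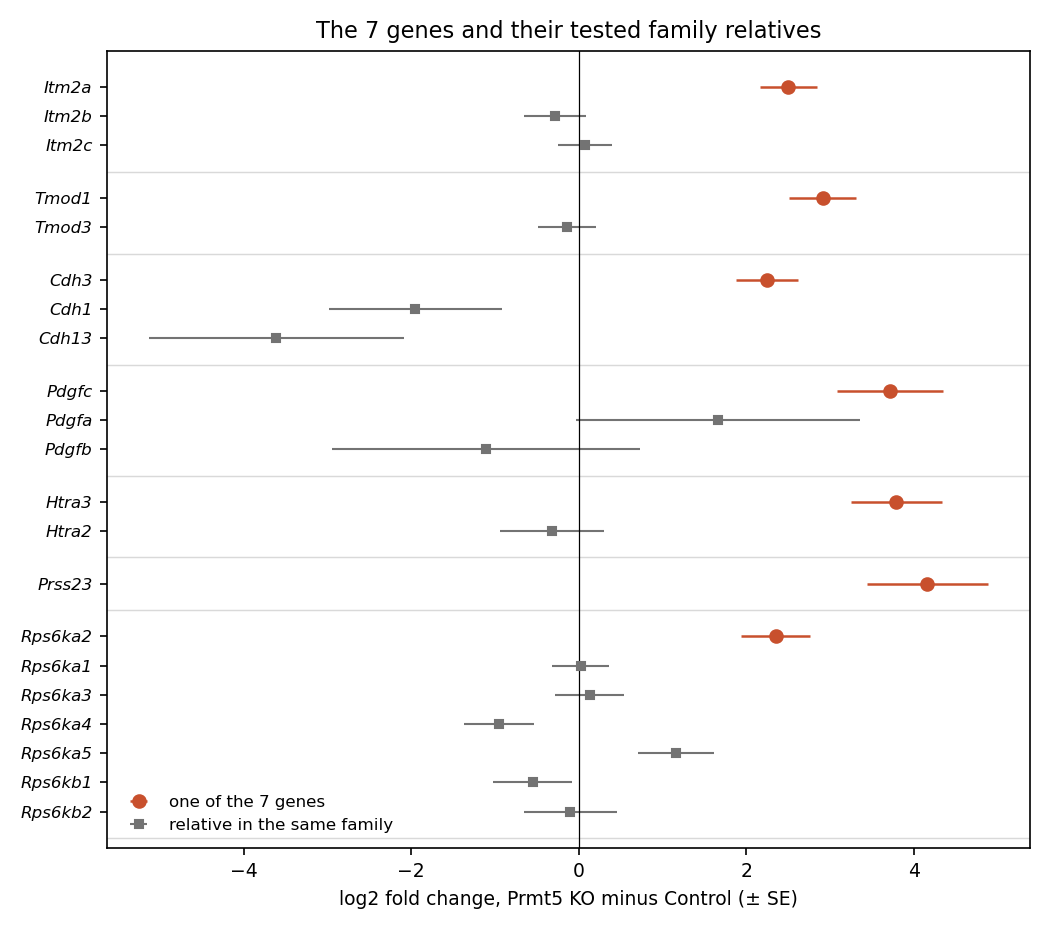
Fitted log2 fold change (Prmt5 KO minus Control) with its SE for the 7 genes (red circles) and the 14 family relatives that could be tested (grey squares). The 7 genes lie between 2.25 and 4.16 by choice, while the relatives have a median of -0.21.

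Several relatives were more abundant than the chosen gene of their family. Itm2b, a widely expressed relative of Itm2a, had 857 and 1000 CPM in Control, against 604 and 924 CPM in Prmt5 KO, a log2 fold change of -0.28 ± 0.37 (SE; adjusted p = 0.925 in edgeR). Tmod3, the tropomodulin of many cell types, had 225 and 182 against 229 and 141 CPM. Rps6ka1, the kinase RSK1, had 427 and 304 against 333 and 411 CPM. In these 3 the groups overlapped. Rps6ka5, the related kinase MSK1, was the 1 of the 14 tested relatives with both Prmt5 KO libraries higher, at 39.6 and 31.5 CPM against 16.1 and 15.7 (unadjusted p = 0.0297, adjusted p = 0.492 in edgeR), and it was named after its values were seen. Of the 6 tested relatives of Rps6ka2, 2 had both Prmt5 KO libraries lower, against 19% of all genes. Among these was Rps6ka4, also named after its values were seen, with 61.6 and 55.4 CPM in Control against 38.9 and 21.3 (adjusted p = 0.588 in edgeR).

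Cdh1, E-cadherin, had 14.9 and 9.86 CPM in Control, against 0.881 and 5.71 CPM in Prmt5 KO, a log2 fold change of -1.95 ± 1.03 (SE; adjusted p = 0.654 in edgeR). Its values lay on the other side from those of Cdh3, without passing the test. Cdh13, a cadherin without a cytoplasmic tail, also named after its values were seen, had 5.31 and 7.28 against 0.881 and 0 CPM (unadjusted p = 0.0425, adjusted p = 0.551 in edgeR). Htra2, the mitochondrial protease of the Htra family, had 15.9 and 13.1 against 14.7 and 8.47 CPM. Pdgfb had 6.37 and 0.235 against 2.91 and 0 CPM, so its replicates disagreed. Prss35, the listed relative of Prss23, had 1 read in all, in Prmt5 KO 1.

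Genes whose proteins work with those of the 7 were listed by pathway, 66 in all, and 58 could be tested. edgeR passed 0 higher and 0 lower at an adjusted p under 0.05, where it passed 0% of all genes as higher and 0.00928% as lower, and 8 had an unadjusted p under 0.05, against 8.58% of all genes. DESeq2 on the same counts passed 2 of the 56 it gave an adjusted p, Gsn and Jup, both higher, where it passed 1.65% of all genes. The median log2 fold change was 0.14. Both Prmt5 KO libraries lay above both Control libraries in 20 of the 58, against 20.5% of all genes, and below them in 7, against 19%. Pdgfrb, with 0 Control reads, is among the 8 and the 20, though it could only come out higher.

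Among the partners of cadherins, Jup, plakoglobin, the catenin that binds cadherin tails in place of beta-catenin, had 82.2 and 81.2 CPM in Control, against 249 and 230 CPM in Prmt5 KO. The groups did not overlap and its replicates lay close together (log2 fold change 1.55 ± 0.31 SE, unadjusted p = 0.000737, adjusted p = 0.135 in edgeR). Ctnna1, alpha-catenin, had 85.9 and 51.9 against 168 and 88.8 CPM. Of the thin-filament genes, 6 of 13 had both Prmt5 KO libraries higher, against 20.5% of all genes, and 0 had both lower, against 19% of all genes. Gsn, gelsolin, which severs and caps actin, had 87.5 and 117 against 236 and 379 CPM (log2 fold change 1.59 ± 0.36 SE, adjusted p = 0.211 in edgeR), and Sptbn1, a beta-spectrin, 314 and 309 against 526 and 450 CPM.

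The receptors that processed Pdgfc binds had few reads. Pdgfra had 0 exon reads in each Control library, against 2 and 1 in Prmt5 KO. Pdgfrb had 0 and 0 against 42 and 30 reads, 0 against 2.85 and 5.91 CPM. That is at least 14.5-fold higher against a floor of 3 counts over the Control group. Pdgfrb passed the filter on low counts only through Prmt5 KO, so it could only come out higher and no p-value is given. Nrp1, a co-receptor of several growth factors, had 74.5 and 102 against 83.9 and 93.9 CPM, with overlapping groups.

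Of the 19 genes of the ERK pathway, which lies above Rps6ka2, 3 had both Prmt5 KO libraries higher, against 20.5% of all genes, and 4 had both lower, against 19%, with a median log2 fold change of -0.22. Spred1, an inhibitor of Ras signalling, had 8.85 and 9.62 against 30.6 and 23.2 CPM (adjusted p = 0.426 in edgeR). Dusp4, a phosphatase that acts on ERK, had 3.54 and 0.704 against 19.5 and 9.84 CPM (adjusted p = 0.443 in edgeR). Of the RSK substrates, Bad, a death protein, had 21.4 and 40.4 against 12.6 and 17.1 CPM, and Creb1, a transcription factor, 41.4 and 29.8 against 56.5 and 62.2 CPM.

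In the TGF-beta pathway, on which Htra3 can act, the median of 8 tested genes was -0.10. Both Prmt5 KO libraries were higher in 3 of the 8, against 20.5% of all genes, and lower in 2, against 19%. Smad7, an inhibitor of the pathway, had 20.4 and 16.2 against 9.08 and 3.35 CPM, and Tgfbr1, a receptor, 10.8 and 26.8 against 28.5 and 33.3 CPM, each with groups that did not overlap and neither past the threshold (adjusted p = 0.606 and 0.799 in edgeR). Of 5 genes that thymocytes use in positive selection, as they do Itm2a, 3 had both Prmt5 KO libraries higher, against 20.5% of all genes. Cd69, an activation marker, had 22.3 and 17.1 against 110 and 35.8 CPM (adjusted p = 0.347 in edgeR). Themis, an adaptor of T cell receptor signalling, had 39.5 and 43.2 against 97.7 and 81.7 CPM (adjusted p = 0.361 in edgeR).

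**Figure D5:**
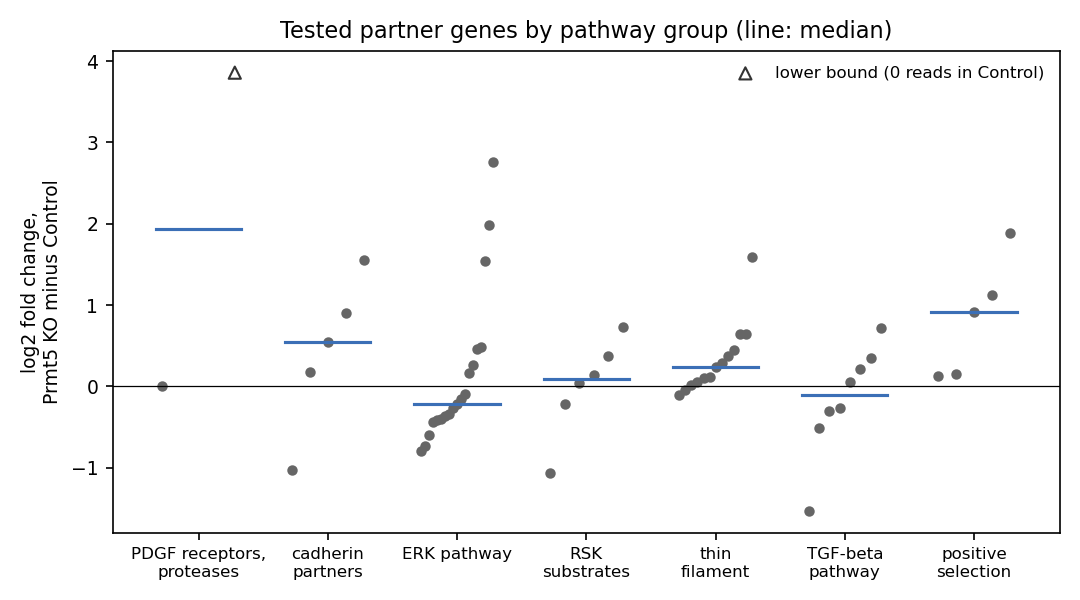
Fitted log2 fold change (Prmt5 KO minus Control) of the 58 partner genes that could be tested, 1 point per gene, by pathway group, with the group's median as a line. The open triangle is Pdgfrb at its lower bound of 14.5-fold, since it had 0 reads in Control; Jup, the highest of the cadherin partners, is at 1.55.

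Several of the 7 genes are known from other cell types, whose markers were therefore counted. Tmod1 is known from red cells, and 6 erythroid markers summed to 0.531 and 0 CPM in Control, against 0.271 and 2.56 CPM in Prmt5 KO, with Hbb-bt and Alas2 at 0 in all 4 libraries. The 7 fibroblast markers summed to 0.177 and 2.11 against 3.39 and 6.1 CPM, with Dcn and Lum at 0 in all libraries and Pdgfrb the largest part in Prmt5 KO. The 6 thymic epithelial markers summed to 3.72 and 0.235 against 6.85 and 11.2 CPM, with Krt5 and Psmb11 at 0 and Epcam at 2.48 and 0 against 5.02 and 7.88 CPM. The 4 megakaryocyte markers summed to at most 0.407 CPM. The 4 endothelial markers summed to 97 and 88.7 against 165 and 153 CPM, nearly all of it Pecam1, with Cdh5 at 0.

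Markers of other blood cells were also higher in Prmt5 KO in part. The 4 mast cell markers summed to 2.12 and 0 against 13.6 and 23.6 CPM, with Mcpt4 and Fcer1a at 0. Cpa3 had 0 and 0 against 5.63 and 3.74 CPM, and Kit 2.12 and 0 against 7.93 and 19.9 CPM. The 5 myeloid markers summed to 1.95 and 1.41 against 14.4 and 8.07 CPM, with Lyz2 and Adgre1 at 0 and Itgam the largest part, at 1.77 and 0 against 12.4 and 7.09 CPM. The 4 NK cell markers summed to 14 and 30.5 against 55 and 141 CPM, nearly all of it Fcer1g, with Ncr1 at 0. The 3 B cell markers used summed to 0.177 and 0 against 0.271 and 3.94 CPM, with Ms4a1 at 0, and the 6 double-positive thymocyte markers to 5.31 and 13.6 against 23 and 4.73 CPM. Whether such cells were present, and what part they had in the levels of the 7 genes, was not tested.

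The 3 genes named here had the profile most like the mean of the 7 over the 4 libraries, measured as the root mean square distance between gene-centred log2 CPM. They were Gcnt4 (0.0969), a glycosyltransferase, Nup210l (0.12) and Duoxa1 (0.154). Each had 0 reads in both Control libraries and few in Prmt5 KO: 27 and 12 for Gcnt4, 33 and 11 for Nup210l, and 25 and 13 for Duoxa1. They thus passed the filter on low counts only through Prmt5 KO, and the profile they matched was the one used to choose the 7. The likeness of these 3 genes depended on the prior count added before the logarithm, 2 here: with a prior count of 0.5, 0 of the 3 were among the nearest.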

How the data were processed

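RNA was sequenced from 2 Control and 2 Prmt5 KO libraries, with groups taken from the titles. The cDNA was amplified with SMART-seq v4, per the labels, and single, trimmed reads were used, per the file headers. The submitters' processing notes name mm10 and edgeR; mapper, annotation and strand setting were not given in the sources used here. A single table deposited by the authors holds raw counts of exon, junction, intron and gene reads, and RPKM values. The authors' deposited fold change (a signed score) and p-value, by a t-test per the file headers, were computed on unscaled gene reads. Coordinates are those of the table, whose starts count from 0, so 1 was added; gene IDs and shared exon bases come from GENCODE M21 by symbol. Promoter sequences are from RefSeq. For 15821 genes the exon length is 0.

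Total exon counts entered edgeR 4.0.16 (R 4.3.3) after filterByExpr, which kept 10775 genes. TMM scaling and the quasi-likelihood test were applied, with Benjamini-Hochberg adjustment over all genes tested and a threshold of 0.05; DESeq2 1.42.0 was an alternative. Intron shares used unique reads. Alternatives were other scalings, filters, read columns, a replicate block and each library left out. The genes named are the 7, for each the relative past the threshold or else the most abundant, for each pathway group the genes past the threshold or else the 2 with the smallest p, and the 3 nearest profiles. The 7 genes, the lists, the motifs and the tests were chosen with earlier results of these data known. Depth was 4600799 to 13240293 exon reads. Poisson and binomial intervals (95%) and limits (3 counts) cover counting error only; without molecular identifiers, PCR copies of a molecule count as separate reads. The values of 2 marker genes are not reported here.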

Additional observations from a re-analysis of the deposited data

How the results depend on the processing

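With 2 libraries a group the test is weak and its count of calls depended on the processing. edgeR passed 1 gene of 10775 (0 higher, 1 lower), also under DESeq2 size factors, library size only and unique exon reads. It passed 215 of 18026 with no filter on low counts and 14 of 12135 with total gene reads, and DESeq2 passed 171 of 10357. With one library left out the count was 1 to 37: 4 without Control 2, 9 without Prmt5 KO 1 and 37 without Prmt5 KO 2. Pathway partners called numbered 0 of 58, against 3 of 65 with no filter (Cd69, Gsn, Jup) and 2 of 56 with DESeq2 (Gsn, Jup). Family relatives numbered 0 under all 11 alternatives. With the replicate number as a block, 362 of 10775 genes were called (180 higher, 182 lower). Among them were 4 of 58 partners (Cd69, Gsn, Jup, Themis) and 0 of 14 relatives. The labels do not say that a number marks a shared mouse or batch, and with 2 pairs the deviations of same-numbered libraries correlated at 0.232 over 9142 genes, so no pairing was assumed. The cause of these shifts was not tested.

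The median log2 fold change of the 7 genes was 2.90 to 3.21 over the 11 alternatives. Of the 77 values of single genes 0 were negative, which the choice of the genes largely fixed in advance. Measured by each gene's own spread between replicates, 75 moved by less than 1 SD. The others were 2.08 for Cdh3 and 3.09 for Pdgfc with total gene reads. With 2 libraries a group, leaving 1 out shifts a group mean by less than this SD almost by construction. The values with 1 library left out could therefore hardly count as moved. A wide spread hides movement by this measure: Rps6ka2 ranged from 1.94 to 2.97 and still counts as unmoved. Depth limits the Control levels of Pdgfc and Prss23 most, at 11 and 7 exon reads a library. Leaving out each library was added for intron reads after seeing the data, in the 4 genes with intron reads in every library. The difference turned for Pdgfc, at 0.717-fold without Prmt5 KO 1; the cause was not tested.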
